A study of Helicoverpa armigera with 12 samples.

Results

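Troponin C is the calcium sensor of the muscle thin filament, and 5 of the 99711 assembled contigs of the cotton bollworm moth *Helicoverpa armigera* were described as troponin C. The results below turn on 2 of them, c57573_g1_i1 (troponin C, isoform 1-like) and c57744_g1_i1 (troponin C type IIIa-like protein). These 2 were chosen on their levels in adults, with earlier results of these data known, so their difference between adults and larvae is a description with no test. The other 3 contigs were found by their description alone and were tested in all comparisons. They were c75881_g1_i1 (troponin C), c54532_g1_i1 (troponin C 2) and c50322_g1_i1 (troponin C, isoform 2-like). Each of the 5 was the only contig of its unigene, and all 5 passed the filter for testing, an average of 1 FPKM or more across the 12 libraries.

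In striated muscle, calcium released from the sarcoplasmic reticulum binds troponin C, which sits on actin with troponin I, the subunit that inhibits contraction, and troponin T, the subunit that holds the complex to tropomyosin. Calcium binding lifts the inhibition and lets myosin pull. In *Drosophila melanogaster* a small family of genes encodes troponin C, its members are used in different muscles and at different stages, and isoform 1 is a form of adult muscle. A moth gains its flight muscle during metamorphosis, while a caterpillar moves with the muscles of its body wall.

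RNA was read from whole bodies reared on an artificial diet, as pools of 30 1st instar larvae on day 3 after hatching, of 10 5th instar larvae on day 1 after the moult, and of 10 adults on day 1 after eclosion. There were 4 pools of each larval stage, 2 pools of adult males (replicates 1 and 2) and 2 of adult females (replicates 3 and 4), all untreated. The study used these libraries to compare opsin genes between stages. Values are FPKM, fragment numbers divided by contig length and by the fragments mapped in the library, which allow levels to be compared between contigs per length. The sources used here do not say that the pools came from separate broods, so p-values measure only the spread between these pools.

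The sum of all FPKM in a larval library lay between 1074573 and 1509632. In adult libraries it lay between 447094 and 688947, so values set across stages depended on the scaling. Over 27678 contigs tested, the median difference on the log2(FPKM + 1) scale was -0.19 for adults minus 5th instar larvae and -0.12 for adults minus 1st instar larvae, and became 0.53 and 0.66 when every library was scaled to the same sum (TPM). Of the contigs called in adults against 5th instar larvae, 27.0% were higher in adults, and 71.0% under TPM. Against 1st instar larvae the share was 30.9%, and 69.97% under TPM. For males against females 55.1% of calls were higher in males, and 34.5% under TPM. Shares and ratios within a library, used below, are the same in FPKM and TPM. Quantile normalization can change them and was not applied to them. The other tissues of the whole body differed as well. Digestive enzymes of the gut (trypsin and chymotrypsin, 151 contigs, 31 of them at 0 in all adult libraries) summed to between 51575 and 135603 FPKM in larvae and between 366 and 839 FPKM in adults. Storage proteins of the fat body (7 contigs, none at 0 in all adult libraries) summed to between 42649 and 143113 FPKM in 5th instar larvae, between 7.64 and 20.1 FPKM in 1st instar larvae and between 27.4 and 125 FPKM in adults. Egg and yolk contigs (26, of which 1 was at 0 in all adult libraries) summed to between 285 and 1276 FPKM in larvae, between 116 and 177 FPKM in males and between 611 and 1456 FPKM in females. Nervous system contigs (47, of which 1 was at 0 in all adult libraries) summed to between 52.4 and 128 FPKM in larvae and between 39.5 and 63.9 FPKM in adults. The part of these tissues in the troponin C values was not tested, and in whole bodies fewer cells of a type and less RNA per cell cannot be told apart.

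The deposited annotation set the 2 adult contigs together. Both had *Drosophila* troponin C isoform 1 as their best Swiss-Prot match and the same best match in STRING, whereas c75881_g1_i1 matched isoform 3 and c50322_g1_i1 matched isoform 2. The Pfam search found a pair of EF-hands, the helix-loop-helix motif that holds a calcium ion, at residues 12 to 71 and again at 89 to 149 of c57573_g1_i1, and at 12 to 71 and 88 to 148 of c57744_g1_i1. c54532_g1_i1 had its pairs at 12 to 71 and 88 to 148, and c75881_g1_i1 at 20 to 79 and 96 to 156. c50322_g1_i1 had 1 such pair, at 91 to 151. Fragments that fit both of the adult contigs were divided between them by RSEM, so the split between the 2 is less certain than their sum.

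In adults both contigs stood among the most abundant of the transcriptome, and in larvae they were near 0. The level of c57744_g1_i1 was 3688 and 2479 FPKM in the 2 male pools and 1286 and 1307 FPKM in the 2 female pools. In 1st instar larvae its level was 3.89, 2.96, 4.29 and 3.28 FPKM, and in 5th instar larvae 2.20, 2.07, 7.66 and 3.54 FPKM. Every adult pool thus exceeded every larval pool, and the lowest adult value was 168 times the highest larval value. The level of c57573_g1_i1 was 2816 and 2425 FPKM in males and 799 and 1122 FPKM in females. It was 0.087 FPKM in the 1st of the 1st instar pools and listed at 0 in the other 3, and it was 0.648, 0.102, 2.67 and 0 FPKM in 5th instar larvae. Here too the adult and larval pools did not overlap, and the lowest adult value was 299 times the highest larval value.

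The 2 adult contigs were higher in adults than in larvae under each scaling tried. The difference of means on the log2(FPKM + 1) scale was 8.80 for c57744_g1_i1 and 9.94 for c57573_g1_i1 in adults minus 5th instar larvae, and 8.76 and 10.59 in adults minus 1st instar larvae. Set against the median of all contigs these were 8.99 and 10.12 for 5th instar larvae, and 9.31 and 10.35 under TPM. Of the 27678 contigs tested, 111 (0.401%) had a lowest adult value at least 10 times the highest larval value, and 34 (0.123%) had one at least 100 times higher. Both troponin C contigs were among the 34, in place 2 (c57744_g1_i1) and place 4 (c57573_g1_i1) by mean adult level. Ordered by FPKM within a library, c57744_g1_i1 held places 12 and 26 in males and 85 and 27 in females, and c57573_g1_i1 held places 22 and 27 in males and 142 and 48 in females.

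**Figure D1:**
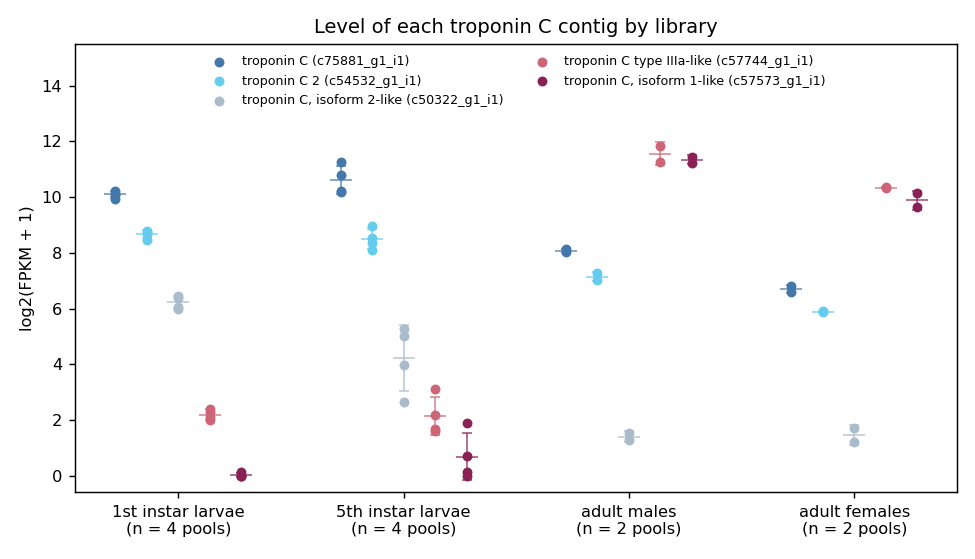
Level of each troponin C contig as log2(FPKM + 1), with a point for each pool (4 pools of each larval stage, 2 of each adult sex), a bar at the mean and whiskers of 1 SD. The isoform 1-like and type IIIa-like contigs lie near 0 to 3 in larvae and at 9.6 or above in every adult pool, while the other 3 are lower in adults than in either larval stage.

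Within a library, troponin C was made up of different contigs in larvae and adults. In adults c57744_g1_i1 held 51.9% ± 4.37 (SD, n = 4) of the summed troponin C FPKM and c57573_g1_i1 held 41.3% ± 4.42 (SD, n = 4). Together they made up 93.2% ± 0.979 (SD, n = 4), with the 4 adult pools between 92.3% and 94.0%. In the 8 larval pools the same 2 contigs held 0.236% ± 0.113 (SD, n = 8), between 0.0729% and 0.474%. The share was 93.1% ± 1.23 (SD, n = 2) in males and 93.2% ± 1.16 (SD, n = 2) in females, a gap smaller than the spread of the pools. The ratio of c57573_g1_i1 to c57744_g1_i1 ranged from 0.621 to 0.978 in adults, so the type IIIa-like contig was the more abundant of the pair in all 4 pools. In larvae that ratio was at most 0.349.

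**Figure D2:**
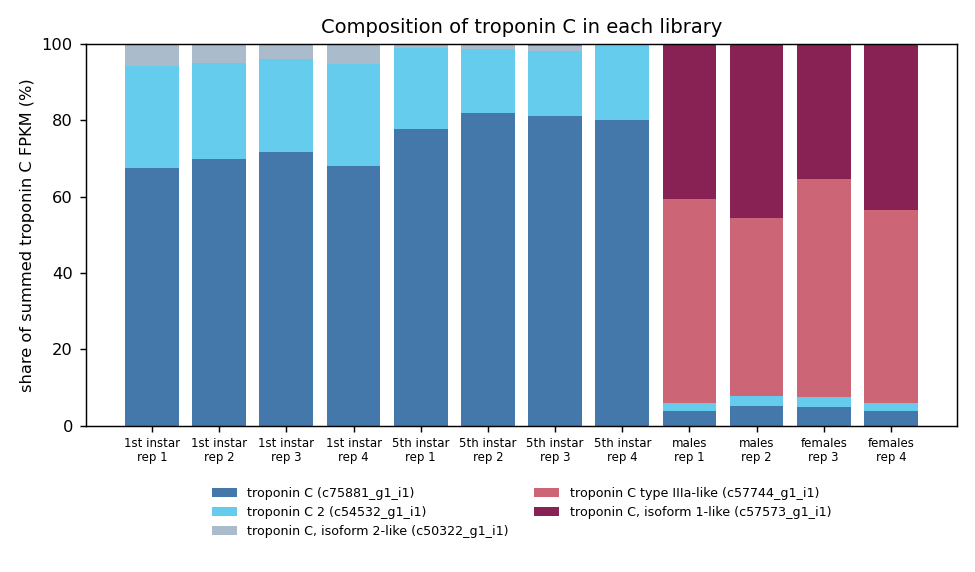
Share of each contig in the summed troponin C FPKM of a library (percent), with a stacked bar for each of the 12 pools. The isoform 1-like and type IIIa-like contigs together fill 92.3% to 94.0% of the 4 adult bars and at most 0.474% of the 8 larval bars.

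The 3 contigs that supplied troponin C in larvae were all lower in adults, by limma with Benjamini-Hochberg adjustment over all contigs tested. c75881_g1_i1, the main larval form, had a level of 1098 ± 91.1 FPKM (SD, n = 4) in 1st instar larvae and 1642 ± 604 FPKM (SD, n = 4) in 5th instar larvae. The adult pools gave 260 and 278 FPKM in males and 111 and 95.8 FPKM in females, below every larval pool. On the log2(FPKM + 1) scale it fell by 3.22 (SE 0.369, adjusted p = 4.05e-05) from 5th instar larvae and by 2.71 (SE 0.369, adjusted p = 0.000101) from 1st instar larvae, and under TPM it fell by 2.12 and fell by 1.42. c54532_g1_i1 was at 409 ± 38.7 FPKM (SD, n = 4) and 367 ± 94.2 FPKM (SD, n = 4) in the 2 larval stages, and at 153, 130, 58.7 and 57.2 FPKM in the adult pools, again without overlap. It fell by 1.98 (SE 0.332, adjusted p = 0.00083) from 5th instar larvae and by 2.16 (SE 0.332, adjusted p = 0.000248) from 1st instar larvae. Under TPM both falls were smaller, at -0.88 on the log2 scale (adjusted p = 0.0268 and 0.0208, limma). The call against 5th instar larvae was lost under quantile normalization (log2 difference -0.75, adjusted p = 0.0618). c50322_g1_i1 was at 1.40 and 1.90 FPKM in males and 2.30 and 1.29 FPKM in females, below every larval pool. It fell by 2.80 (SE 0.467, adjusted p = 0.000796) from 5th instar larvae and fell by 4.79 (SE 0.467, adjusted p = 7.24e-06) from 1st instar larvae, and under TPM it fell by 1.96 and fell by 3.76. Over all contigs tested, 19.7% were called lower and 7.31% higher in adults against 5th instar larvae, and 31.6% were called lower and 14.1% higher against 1st instar larvae. Both comparisons share the adult libraries.

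The summed level of troponin C in adults lay above that of 1st instar larvae, and whether it overlapped that of 5th instar larvae depended on the scaling. The sum was 1585 ± 123 FPKM (SD, n = 4) in 1st instar larvae and 2036 ± 710 FPKM (SD, n = 4) in 5th instar larvae. The adult sums were 6918 and 5315 FPKM in males and 2257 and 2583 FPKM in females. The 5th instar pool with the most troponin C, at 2981 FPKM, lay above both female pools. Under TPM the stages did not overlap, since the highest 5th instar sum was 2668 and the female sums were 4159 and 5778.

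Between the larval stages c57744_g1_i1 differed by 0.046 (SE 0.401, adjusted p = 0.963, limma) on the log2(FPKM + 1) scale in 1st minus 5th instar larvae, which did not pass the test. c57573_g1_i1 was listed at 0 in 4 of the 8 larval pools and passed the filter only through the adults, so its larval difference of -0.65 is given with no test. Of the other 3 contigs, 1 was called. c50322_g1_i1 was at 87.0, 65.9, 61.9 and 82.3 FPKM in 1st instar larvae and at 14.9, 37.6, 31.1 and 5.32 FPKM in 5th instar larvae, so the stages did not overlap. Its difference was 1.99 (SE 0.467, adjusted p = 0.00633, limma). c75881_g1_i1 had a difference of -0.51 (SE 0.369, adjusted p = 0.295) and c54532_g1_i1 of 0.18 (SE 0.332, adjusted p = 0.706). Over all contigs 21.7% were called higher and 18.4% lower in 1st instar larvae.

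As shares of troponin C within a library, the 3 larval contigs separated the instars. The shares of a library sum to 100%, so a higher share of 1 contig lowers the others and the 3 are not separate results. c75881_g1_i1 held 69.3% ± 1.89 (SD, n = 4) in 1st and 80.2% ± 1.88 (SD, n = 4) in 5th instar larvae. c54532_g1_i1 went from 25.8% ± 1.21 (SD, n = 4) to 18.5% ± 2.14 (SD, n = 4). c50322_g1_i1 went from 4.69% ± 0.729 (SD, n = 4) to 1.01% ± 0.466 (SD, n = 4). For each of the 3 the 4 pools of a stage lay on one side of the 4 pools of the other stage, and the two-sided exact permutation test gave p = 0.0286, the smallest that 4 pools against 4 allow (adjusted p = 0.0476 over the 5 contigs). The share of c57744_g1_i1 was 0.227% ± 0.0266 (SD, n = 4) against 0.202% ± 0.123 (SD, n = 4) (exact permutation p = 0.743). The share of c57573_g1_i1 was 0.00135% ± 0.0027 (SD, n = 4) against 0.042% ± 0.0571 (SD, n = 4), with 3 and 1 of the 4 pools at 0. It was counted in the adjustment over the 5 contigs, but no test of it is read, for the reason given for its larval difference. In every larval pool the order of levels was c75881_g1_i1, c54532_g1_i1, c50322_g1_i1, c57744_g1_i1 and c57573_g1_i1. In 5th instar larvae the range of c57744_g1_i1 overlapped that of c50322_g1_i1 above it and that of c57573_g1_i1 below it. In adults c57744_g1_i1 and c57573_g1_i1 came first, in this order in all 4 pools but with overlapping ranges, followed by c75881_g1_i1, c54532_g1_i1 and c50322_g1_i1, and the ranges of c75881_g1_i1 and c54532_g1_i1 also overlapped.

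Troponin I, troponin T and tropomyosin, the partners of troponin C on the thin filament, were lower in adults. Of the 22 contigs described as such, 12 were tested, and 11 of the 12 fell from 5th instar larvae to adults and 11 of 12 from 1st instar larvae, with none higher. Over all contigs 19.7% and 31.6% were called lower. The 12 came from 6 unigenes, among them 4 contigs of troponin T from 1 unigene, and with the contigs of a unigene summed 6 of 8 unigenes were lower in each comparison. The median difference of the list was -2.43 and -2.23 on the log2(FPKM + 1) scale, beside -0.19 and -0.12 over all contigs. Under TPM 8 of 12 were lower and 1 was higher in each comparison. Of all contigs under TPM 11.5% were lower and 28.1% higher against 5th, and 15.1% lower and 35.2% higher against 1st instar larvae. The 2 contigs of troponin I, which belong to 1 unigene, summed to 4502 ± 385 FPKM (SD, n = 4) in 1st instar larvae, 6877 ± 2614 FPKM (SD, n = 4) in 5th instar larvae, 881 ± 228 FPKM (SD, n = 2) in males and 533 ± 102 FPKM (SD, n = 2) in females. The contig c50343_g1_i2 of troponin I fell by 3.29 (SE 0.309, adjusted p = 7.43e-06, limma) from 5th instar larvae to adults, and fell by 2.19 under TPM.

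The ratio of summed troponin C to summed troponin I, which TPM scaling leaves as it is, was 0.345, 0.358, 0.355 and 0.351 in 1st instar larvae. The 5th instar pools gave 0.412, 0.300, 0.358 and 0.186. The adult pools gave 6.64 and 7.38 in males and 3.73 and 5.60 in females, so that every adult pool lay above every larval pool. Without the 2 adult contigs the ratio to troponin I was 0.397 and 0.570 in males and 0.284 and 0.335 in females, and overlapped the larval range of 0.186 to 0.411. Relative to troponin T, summed troponin C was 0.592 ± 0.10 (SD, n = 8) in larvae and 8.12 ± 2.87 (SD, n = 4) in adults. Relative to tropomyosin it was 0.586 ± 0.306 (SD, n = 8) in larvae and 4.95 ± 1.47 (SD, n = 4) in adults. Because the members of the sum were chosen for adults, these ratios were not tested.

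**Figure D3:**
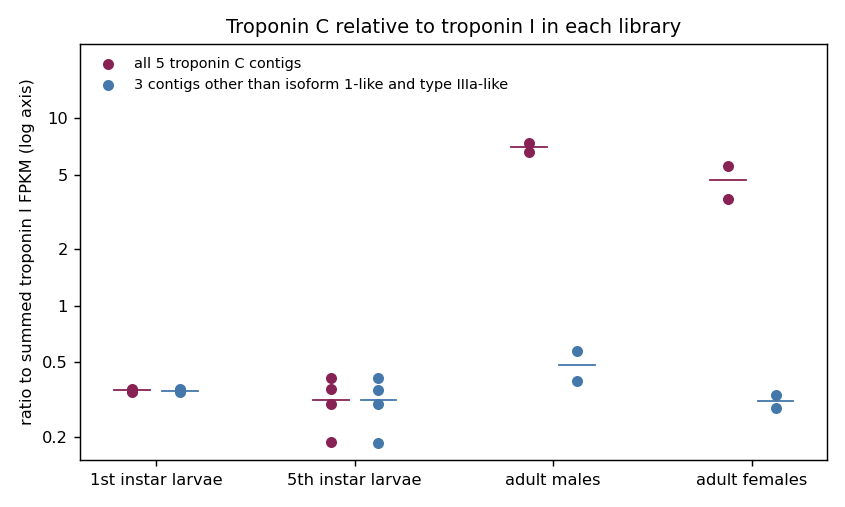
Ratio of summed troponin C FPKM to summed troponin I FPKM on a log axis, with a point for each pool and a bar at the group mean. With all 5 troponin C contigs the adult pools lie between 3.73 and 7.38 and the larval pools between 0.186 and 0.412, and without the isoform 1-like and type IIIa-like contigs the adult pools lie between 0.284 and 0.570.

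For proteins of the thick filament and Z-disc the numbers of calls depended on the larval stage and on the scaling. The list median for adults minus larvae lay above that of all contigs for both larval stages under each scaling. Of 71 contigs described, 47 were tested, from 34 unigenes. Against 5th instar larvae 8 (17.02%) were higher and 7 (14.9%) lower in adults, where 7.31% and 19.7% of all contigs were. Against 1st instar larvae 17 (36.2%) were higher and 2 (4.26%) lower (9 and 2 without male replicate 1), where 14.1% and 31.6% of all contigs were. In each comparison 4 of the contigs called higher, 3 titin-like contigs of 1 unigene and miniparamyosin, averaged under 1 FPKM in larvae, so that they entered the test only through the adults. The list median was 0.098 and 1.01 on the log2(FPKM + 1) scale. Under TPM 24 were higher and 2 lower against 5th instar larvae, and 37 higher and none lower against 1st instar larvae, where 28.1% and 35.2% of all contigs were called higher. Under quantile normalization 10 were higher and 1 lower, and 28 higher and none lower, where 14.4% and 19.9% of all contigs were called higher. Flightin (c53528_g2_i1), a thick filament protein of flight muscle in *Drosophila*, was at 1066 ± 867 FPKM (SD, n = 4) in adults and 19.6 ± 5.46 FPKM (SD, n = 4) in 5th instar larvae, higher by 5.27 (SE 0.558, adjusted p = 2.13e-05, limma), and by 6.36 under TPM. Miniparamyosin (c71511_g1_i1), a product of the paramyosin gene in the thick filament core, was at 0.175 ± 0.136 FPKM (SD, n = 4) in 1st and 0.446 ± 0.168 FPKM (SD, n = 4) in 5th instar larvae and at 44.3 ± 22.9 FPKM (SD, n = 4) in adults, given with no test for the reason above. A titin-like contig (c63903_g1_i2), of the family of giant elastic proteins that link myosin to the Z-disc, was listed at 0 in the 4 libraries of 1st instar larvae, at 0.397 ± 0.0875 FPKM (SD, n = 4) in 5th instar larvae and at 32.3 ± 14.01 FPKM (SD, n = 4) in adults, again with no test. In contrast myosin light chain (c35923_g2_i1) fell by 2.10 (SE 0.289, adjusted p = 0.000178, limma) from 5th instar larvae (log2 difference -0.995 under TPM), and muscle myosin heavy chain (c59905_g2_i1), the motor itself, fell by 1.83 (SE 0.541, adjusted p = 0.0255, limma). The heavy chain was not called under TPM (log2 difference -0.72, adjusted p = 0.23), or without the 1st or the 3rd pool of 5th instar larvae or female replicate 4 (adjusted p = 0.0575, 0.0737 and 0.0654). Muscle LIM protein (c57986_g1_i3), found at the Z-disc, fell by 1.61 (SE 0.273, adjusted p = 0.000514, limma) from 1st instar larvae, and was not called under TPM (log2 difference -0.32, adjusted p = 0.159).

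For calcium handling proteins of muscle, which set the signal that troponin C reads, the numbers of calls depended on the scaling. The list median for adults minus larvae lay above that of all contigs under each scaling. The gap was 0.60 to 0.66 against 5th instar larvae and 0.099 to 0.60 against 1st instar larvae. Of 28 contigs described, 9 were tested, with none higher and 1 (11.1%) lower in adults against each larval stage, beside 7.31% higher and 19.7% lower over all contigs against 5th and 14.1% higher and 31.6% lower against 1st instar larvae. The call against 1st instar larvae was c65281_g1_i1, a calcium channel subunit contig that averaged under 1 FPKM in all groups except 1st instar larvae. It entered the test only through that stage, so its call is no support. Under TPM 5 and 7 of the 9 were higher and none lower, where 28.1% and 35.2% of all contigs were higher. With the contigs of a unigene summed 4 and 3 of 10 unigenes were higher and 1 was lower. Of all unigenes tested 7.89% and 13.5% were higher, and 21.1% and 31.2% lower. Sarcalumenin (c61668_g1_i1), a calcium-binding protein of the sarcoplasmic reticulum, fell by 1.35 (SE 0.371, adjusted p = 0.0178, limma) from 5th instar larvae to adults and was not called under TPM (log2 difference -0.26, adjusted p = 0.505) or without the 3rd pool of 5th instar larvae (adjusted p = 0.0503). Calmodulin, the general calcium sensor of the same EF-hand family, served as a comparison. Of 15 contigs 5 were tested, from 3 unigenes, and 3 of the 5 fell from each larval stage to adults. These 3 were calmodulin-like contigs of 1 unigene, which made 1 call with the contigs of a unigene summed. Among them c61266_g1_i1 and c61266_g1_i2 both fell by 4.29 from 5th instar larvae (adjusted p = 1.8e-07 and 1.5e-05, limma), and under TPM had differences of -3.64 and -3.35. Between the instars 4 of the 5 were called lower in 1st instar larvae (between 2 and 5 with a larval pool left out, with 2 without the 3rd pool of 5th instar larvae), among them c61266_g1_i1 (log2 difference -2.89, SE 0.267, adjusted p = 1.01e-05, limma). These 4 contigs came from 2 unigenes. With the contigs of a unigene summed 3 of 3 were lower, beside 18.2% of all unigenes tested. Over all contigs 21.7% were called higher and 18.4% lower in this comparison. The list of thin filament partners gave 2 higher of 12 (16.7%), and that of calcium handling 1 higher of 9 (11.1%). The calcium handling call was again c65281_g1_i1, which entered the test only through 1st instar larvae, so it is no support. The thick filament list gave 11 lower of 47 (23.4%, between 5 and 16 contigs with a larval pool left out).

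**Figure D4:**
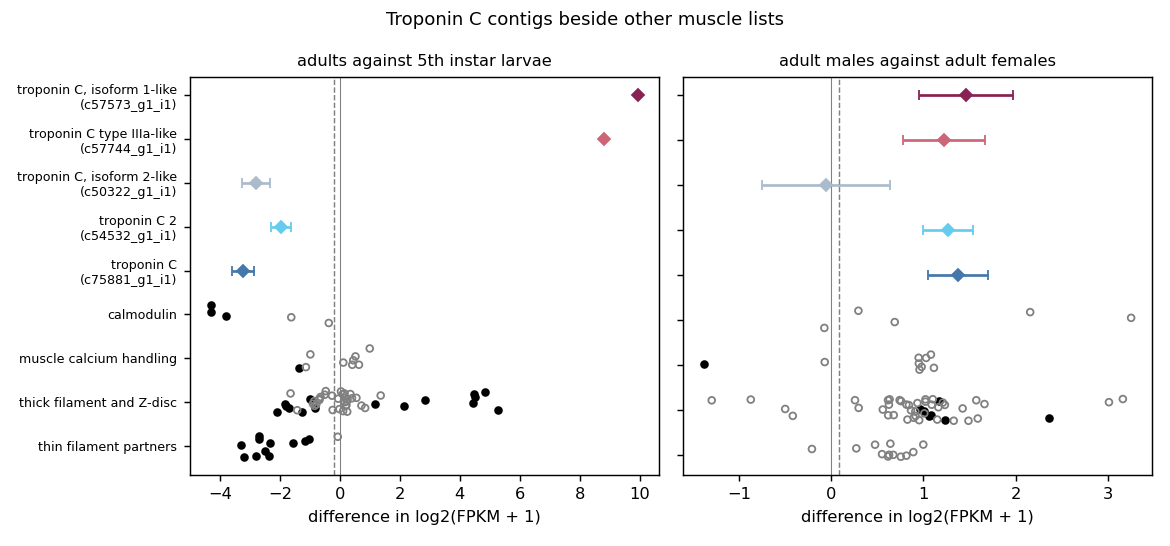
Difference in log2(FPKM + 1) of the 5 troponin C contigs (diamonds, with whiskers of 1 SE where a test was made) and of each tested contig of 4 lists (circles, filled where the adjusted p was below 0.05), for adults minus 5th instar larvae and males minus females. The dashed line marks the median of all contigs. The isoform 1-like and type IIIa-like contigs lie at 9.94 and 8.80 in the left panel, right of all list contigs, of which flightin is the highest at 5.27.

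Within adults the 2 contigs were more abundant in males in all pools, but this difference did not pass the test. In FPKM the lowest male value of c57573_g1_i1 was 2.16 times the highest female value, and that of c57744_g1_i1 was 1.90 times. The gap was smaller under TPM, with 3520 as the lowest male and 2510 as the highest female value of c57573_g1_i1. For c57744_g1_i1 these were 3598 and 2923. The TPM differences on the log2 scale were 1.02 and 0.78 (adjusted p = 0.157 and 0.238, limma). On the log2(FPKM + 1) scale the male minus female difference was 1.46 for c57573_g1_i1 (SE 0.509, adjusted p = 0.0954, limma) and 1.22 for c57744_g1_i1 (SE 0.444, adjusted p = 0.110, limma), beside a median of 0.086 over all contigs. With 2 pools a sex, an exact test of a single contig cannot go below p = 0.333, so pools that do not overlap are no support by themselves. Of the other 3 contigs, c75881_g1_i1 was higher in males by 1.37 (SE 0.330, adjusted p = 0.0218, limma) and c54532_g1_i1 by 1.27 (SE 0.269, adjusted p = 0.0114, limma), while c50322_g1_i1 differed by -0.06. Both calls were lost under TPM (adjusted p = 0.0888 and 0.0762) and under quantile normalization. Without any 1 of the 4 adult pools the call of c75881_g1_i1 was lost (adjusted p between 0.0689 and 0.109), and that of c54532_g1_i1 was lost without male replicate 1 or female replicate 3 (adjusted p = 0.0776 and 0.0506). Over all contigs tested 6.82% were called higher and 5.56% lower in males.

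Of the other muscle lists, that of the thick filament and Z-disc, which is the largest, held most calls between the sexes. None of the 12 tested thin filament partners was called, and 7 of 47 thick filament and Z-disc contigs (14.9%, beside 6.82% over all contigs) were called higher and none lower in males. The count was 3 higher and 2 lower under TPM, where 6.57% and 12.5% of all contigs were. Without male replicate 1 it was 2 higher and none lower. With the contigs of a unigene summed 3 of 36 unigenes were higher, beside 8.28% of all unigenes tested. Under TPM and as unigenes the higher calls were thus near the share over all. Of the 9 tested calcium handling contigs 1 was lower in males, but it averaged under 1 FPKM in all groups except females. None of the 5 tested calmodulin contigs was called. Flightin was at 2102 and 1452 FPKM as the highest and lowest male value and at 450 and 258 FPKM in females, higher in males by 2.35 (SE 0.379, adjusted p = 0.00202, limma), and was also called under TPM (log2 difference 1.92, adjusted p = 0.0112), but not with only the libraries compared (adjusted p = 0.134, limma). Miniparamyosin was higher in males by 1.24 (SE 0.236, adjusted p = 0.00621, limma), and was not called without male replicate 2 (adjusted p = 0.0528), with only the libraries compared (0.114) or with a pseudocount of 0.1 or 0.01 (0.193 and 0.429). Egg and yolk contigs also differed between the sexes, with the sums given above, and their part in these values was not tested.

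Among 18738 described contigs, those whose pattern over the 12 libraries was most like that of the adult contigs were of mixed description. Likeness was measured as Pearson r of log2(FPKM + 1), which in these libraries mostly reflects the step from larvae to adults and is given as a description. For c57573_g1_i1 the 5 closest were c60854_g1_i1, described as a hypothetical protein (r = 0.997), c60031_g1_i2, described as mushroom body large-type Kenyon cell-specific protein 1-like (r = 0.996), c59228_g1_i1, beta-fructofuranosidase 2 (r = 0.996), c57744_g1_i1 itself (r = 0.996) and c56140_g1_i1, a hypothetical protein (r = 0.996). For c57744_g1_i1 they were c56140_g1_i1 (r = 0.997), c57573_g1_i1 (r = 0.996), c59075_g1_i1, alpha amylase (r = 0.996), c60305_g1_i1, a second beta-fructofuranosidase 2 contig (r = 0.995), and c60854_g1_i1 (r = 0.995). Beta-fructofuranosidase splits sucrose and amylase splits starch. In mean level c59228_g1_i1 stood at 1239 FPKM in males and 376 FPKM in females, and c59075_g1_i1 at 671 and 189 FPKM. Flightin, taken from the thick filament list, came at place 145 for c57573_g1_i1 (r = 0.960) and at place 118 for c57744_g1_i1 (r = 0.963).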

How the data were processed

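Reads from poly(A) RNA of 12 whole-body pools of *Helicoverpa armigera* were trimmed, assembled with Trinity into contigs longer than 200 bases, and mapped with Bowtie 0.12.7 (at most 2 mismatches in the first 28 bases) by the authors. The mapping methods speak of 8 libraries while the deposited table holds 12, and all 12 were used here. The table the authors deposited holds FPKM from RSEM 1.1.17 for each contig in each library, with the best matches in nr, Swiss-Prot, STRING and KEGG and Pfam domains. Read counts and contig lengths were not used here. The sources give the sequence yield only as a rounded figure and no mapped reads per library, so no counting interval is given and no count model was fitted. No column of another sample was present.

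Groups came from the sample labels. Differences were fitted with limma 3.58.1 (R 4.3.3, trend) on log2(FPKM + 1), a scale that understates the change of low contigs. Contigs entered if their average was 1 FPKM or more, all 12 libraries shared the spread, and p-values were adjusted by Benjamini-Hochberg over 27678 contigs with 0.05 as the threshold. Stages were fitted with 3 groups and the sexes with 4. Shares of troponin C were compared by an exact permutation test. The fits were tested on simulated data. Lists were made by words in the nr descriptions (troponin C, thin filament partners, thick filament and Z-disc, muscle calcium handling, calmodulin, and tissue markers). Text matching can bring in other proteins, such as protease inhibitors among the gut contigs. The members and lists were chosen with earlier results of these data known. Named contigs were the troponin C contigs, for each list and comparison at most 2 called in each direction with the largest difference, and the 5 contigs closest in pattern to each adult troponin C contig. Contig sequences were not used here. Alternatives were pseudocounts of 0.1 and 0.01, no filter or a minimum of 5, TPM scaling, quantile normalization, only the libraries compared, a replicate block, unigene sums, other forms of the shares, and each library left out in turn.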

Additional observations from a re-analysis of the deposited data

Results flagged for a closer look

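The level of c57573_g1_i1 (troponin C, isoform 1-like) in 1st instar larvae had 1 pool above 0, at 0.087 FPKM, while the other 3 were listed at 0. The gap to the nearest pool was 1 times the whole range of the group, above Dixon's critical value of 0.829 for 4 samples, but with the other 3 pools at 0 any value above 0 gives this ratio, so it does not show that the pool stood apart. This was 1 of 10 groups of troponin C values examined, where chance would give 0.5 at 1 in 20.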

How the results depend on the processing

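The adult minus larval difference of the 2 adult contigs kept its direction throughout, but its size moved. For c57573_g1_i1 against 5th instar larvae it was 11.76 and 12.86 with pseudocounts of 0.1 and 0.01, 10.87 under TPM and 10.95 under quantile normalization, and 9.66 to 10.33 with each library left out. Against 1st instar larvae it was 13.72, 16.44, 11.40 and 11.50, and 10.31 to 10.92. For c57744_g1_i1 it was 9.84 and 9.92 under TPM and quantile normalization against 5th (8.50 to 9.13 with a library left out), and 9.92 and 9.81 against 1st instar larvae (8.46 to 8.97). The difference of c57744_g1_i1 between the instars, near 0, became -0.086 under TPM and ranged from -0.13 to 0.37 with a library left out, and its share difference ranged from -0.0199 to 0.0741 percentage points. c50322_g1_i1 between the sexes ranged from -0.32 to 0.21. With a library left out, 4 pools against 3 cannot go below an exact p of 0.0571, so the shares then passed no test. A minimum mean of 5 left 5653, 4663, 6903 and 1800 contigs called (1st against 5th, adults against 5th, adults against 1st, males against females). With only the libraries compared, 4534 (adults against 5th) and 1718 (sexes) were called, and for the sexes 5864 without a filter and 5274 under TPM. For the contigs named from the lists, 28 differences were called, of which 13 lost the call in at least 1 alternative (66 fits, against 367 that kept it), with none reversed. The 28 include contigs that entered the test only through the group where they were high. Among these are miniparamyosin and the titin-like contig in adults against larvae, for which a kept call is no support. Leaving out libraries gave 8592 to 10661, 6370 to 8328, 10731 to 14072 and 1958 to 4306, the last with 1958 without male replicate 1 and 2074 without female replicate 3.

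The replicate block is given here alone. Of 12 same-numbered pairs of pools from different stages none had a correlation of deviations over 0.1 (highest 0.0765, lowest -0.160), so no pairing across stages was seen. For the sexes the block followed the column names, which number the pools of each sex anew. No pair of a male and a female pool was checked, so a pairing between the sexes was not tested. With the replicate block 3038 contigs were called in adults against 5th instar larvae and 0 for the sexes, where 5378 had an unadjusted p below 0.05 in limma. c50322_g1_i1 between the instars then had an adjusted p of 0.0554, and the sex calls of c75881_g1_i1 and c54532_g1_i1 were lost (0.205 and 0.185), as they were with only the libraries compared (0.0653 and 0.0612). The sex calls of flightin and miniparamyosin were lost with the replicate block as well (0.254 and 0.183).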
